A study of Homo sapiens with 9 samples.

Results

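Divergent promoter transcripts are noncoding RNAs that start beside a gene's promoter and run away from the gene; human nomenclature names each after its partner gene with the ending -DT. A symbol with that ending was listed for 540 of the 56541 genes in the deposited table. The 167 described here were chosen by their mean, at least 20 counts over the 9 libraries, and 266 of the 540 stood at 0 in every library. The partner gene of each was in the table as well. The cells were MOLM-13, an established line of acute myeloid leukemia cells, and all 9 libraries came from cells given doxycycline at 200 ng/µL for 4 days. The groups, with 3 replicates each, were total RNA after a control hairpin (shCONTROL), total RNA after a hairpin that targets BCLAF1 (shBCLAF1), and RNA recovered by immunoprecipitation of BCLAF1 from shCONTROL cells (RIP). More cells went into each RIP sample than into each RNA-seq sample. The labels name no mock precipitation and do not say whether replicates were separate cultures, so the p-values measure the spread between these libraries, which may be technical.

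Most active mammalian promoters start RNA polymerase II in both directions. The RNA made away from the gene is usually ended early by cleavage at nearby polyadenylation signals or by the Integrator and Restrictor complexes. It is then degraded by the nuclear RNA exosome, which the NEXT and PAXT adaptor complexes bring to it, whereas U1 snRNP protects the RNA of the gene itself from premature cleavage. Some divergent RNAs are spliced and stable enough to be annotated as long noncoding RNAs. BCLAF1 is a nuclear RNA-associated protein that works with THRAP3 in transcript processing.

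A RefSeq start site (GRCh38.p14) was found for 134 of the 167, and 127 of these had a partner with a start site, each on the opposite strand. In 120 of the 127 pairs the starts lay within 1000 bases, with a median gap of 144.5 bases and quartiles of 83 and 224.5 bases. The gap was 0 to 300 bases in 91 pairs, and in 11 pairs the transcripts overlapped at their starts. The windows below, from 250 bases before to 50 bases after the start of the divergent transcript, are shown for transcripts that fell (SRP14-DT, TMCC1-DT) or rose (AFTPH-DT, RPS21-DT) after knock-down together with their ratio to the partner, for a transcript enriched in the RIP (ZNF747-DT), and for the divergent transcript of the myeloid factor gene CEBPA. Each reads 5′ to 3′ along the divergent transcript's strand. Capitals mark the motifs searched on both strands: CCAAT (the NF-Y box), GGGCGG (the GC box), CCGGAAG (the core of ETS factor sites), GCATGCGC (part of the NRF1 site) and TATAAA (the TATA box).
SRP14-DT, chr15:40039061-40039360, plus strand: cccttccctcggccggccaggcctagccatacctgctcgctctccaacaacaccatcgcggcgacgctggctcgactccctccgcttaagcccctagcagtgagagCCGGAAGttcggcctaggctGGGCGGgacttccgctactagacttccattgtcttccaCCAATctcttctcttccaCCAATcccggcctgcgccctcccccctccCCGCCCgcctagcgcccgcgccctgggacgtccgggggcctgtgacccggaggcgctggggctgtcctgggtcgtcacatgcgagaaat
TMCC1-DT, chr3:129893621-129893920, plus strand: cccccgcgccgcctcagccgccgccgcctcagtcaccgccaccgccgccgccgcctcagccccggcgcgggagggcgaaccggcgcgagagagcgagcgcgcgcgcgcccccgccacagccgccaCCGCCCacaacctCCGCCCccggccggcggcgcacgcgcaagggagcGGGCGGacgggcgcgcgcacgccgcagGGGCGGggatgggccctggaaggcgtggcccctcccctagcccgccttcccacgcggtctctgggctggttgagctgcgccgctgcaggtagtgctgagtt
AFTPH-DT, chr2:64524106-64524405, minus strand: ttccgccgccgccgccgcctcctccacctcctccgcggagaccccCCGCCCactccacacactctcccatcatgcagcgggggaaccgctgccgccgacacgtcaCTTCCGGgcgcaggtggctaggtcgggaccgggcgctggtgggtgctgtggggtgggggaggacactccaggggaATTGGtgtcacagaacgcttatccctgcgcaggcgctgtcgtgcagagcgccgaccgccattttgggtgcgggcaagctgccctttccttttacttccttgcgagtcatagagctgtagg
RPS21-DT, chr20:62386940-62387239, minus strand: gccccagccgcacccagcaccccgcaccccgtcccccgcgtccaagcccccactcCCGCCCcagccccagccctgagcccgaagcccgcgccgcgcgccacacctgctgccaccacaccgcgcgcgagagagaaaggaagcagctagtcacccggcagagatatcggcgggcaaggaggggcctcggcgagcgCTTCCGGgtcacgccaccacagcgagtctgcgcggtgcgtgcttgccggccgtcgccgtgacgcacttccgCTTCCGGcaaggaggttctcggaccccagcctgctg
ZNF747-DT, chr16:30534808-30535107, plus strand: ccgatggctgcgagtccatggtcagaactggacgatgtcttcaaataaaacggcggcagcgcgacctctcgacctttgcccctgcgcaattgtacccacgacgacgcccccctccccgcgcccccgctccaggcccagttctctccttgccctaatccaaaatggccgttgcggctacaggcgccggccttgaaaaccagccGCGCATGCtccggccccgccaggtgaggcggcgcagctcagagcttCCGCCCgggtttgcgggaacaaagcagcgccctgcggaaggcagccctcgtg
CEBPA-DT, chr19:33302571-33302870, plus strand: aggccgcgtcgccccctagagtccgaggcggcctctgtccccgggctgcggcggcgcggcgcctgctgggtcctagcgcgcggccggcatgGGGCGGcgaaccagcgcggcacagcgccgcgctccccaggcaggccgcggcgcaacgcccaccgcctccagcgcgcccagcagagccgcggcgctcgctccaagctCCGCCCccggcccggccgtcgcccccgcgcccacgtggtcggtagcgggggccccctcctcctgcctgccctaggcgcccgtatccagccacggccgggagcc

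The partner's start lay 109 bases before that of SRP14-DT, 160 before TMCC1-DT, 173 before AFTPH-DT, 114 before RPS21-DT and 200 before ZNF747-DT, all inside the printed windows. For CEBPA-DT it lay 287 bases before, outside the window. The windows were rich in CpG, with a median of 33 CpG in 300 bases over the 134 divergent transcripts. The median was 14 over the 35116 promoter windows of the reference table and 26 over the 9779 windows of genes with a mean of at least 20 counts. GGGCGG was in 76.1% of the windows of divergent transcripts, in 45% of all windows and in 69.5% of those of genes above the count minimum. CCGGAAG was in 27.6%, 10.3% and 20.6%, respectively. CCAAT was in 29.1%, 34.6% and 37.3%, GCATGCGC in 6.72%, 3.05% and 5.8%, and TATAAA in 4.48%, 11.5% and 5.95%. Matches to different motifs overlapped in 6 of the 134 windows, and a match is a description of letters, not a binding site.

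The divergent transcripts were rare. Their mean over the 9 libraries ran from 20.8 to 2757 counts with a median of 78, where the partners' median was 1947. Summed, the 167 took 0.0877% ± 0.0010 (SD, n = 3) of the shCONTROL counts, 0.0864% ± 0.0023 of those of shBCLAF1 and 0.0961% ± 0.0090 of those of the RIP. Just inside the minimum were ODC1-DT and POU2F1-DT with means of 21.2 counts and MIOS-DT with 20.8, and just outside were ZDHHC12-DT with 19.6, NQO1-DT with 19.3 and ATP6V0D1-DT with 19.2. Of the 167, 18 had a mean under 20 within shCONTROL, 7 within shBCLAF1 and 12 within the RIP, so that they passed through the other groups. A count of 0 in at least 1 library was recorded for 38 transcripts, and for 32 of them the 0 stood beside 20 or more counts in another replicate of the same group. A 0 in this table can therefore be an estimate that failed rather than a missing RNA. Annotated spans overlapped another expressed gene in 33 of the 134 with a position, the partner in 20 of them, and the counting is not stated to use strand, so reads of the 2 genes may be shared there.

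Library totals were 25819144 to 36635268 counts. BCLAF1 was at 325, 328 and 312 CPM (counts relative to the library total, scaled by TMM factors) in shCONTROL and at 115, 125 and 99.9 in shBCLAF1, which is -1.50 on the log2 scale (SE 0.085, adjusted p = 2.06e-04 by edgeR's quasi-likelihood test). In the RIP it stood at 1147, 1059 and 1033 CPM. All 10 markers of myeloid cells were present; their summed level ranged over 2156 to 2242 CPM (shCONTROL), 3982 to 4426 (shBCLAF1) and 1901 to 2125 (RIP). Of the 5 markers each, 4 of T cells, 3 of B cells, 3 of erythroid cells and 5 of stromal and epithelial cells were at 0 in every library. The summed level of the T cell markers was 7.71 to 11.9 CPM over the libraries and that of the B cell markers 1.35 to 3.32 CPM. The erythroid sum was 0 in the RNA-seq libraries and 1.24 to 60.3 CPM in the RIP libraries, with HBB and ALAS2 among the markers at 0. The part of these shifts in the results was not tested.

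After BCLAF1 knock-down few divergent transcripts changed, and they changed in both directions. Of 163 tested, 12 (7.36%) rose and 13 (7.98%) fell at an adjusted p under 0.05 (edgeR's quasi-likelihood test, Benjamini-Hochberg over all genes). Of the 12 that rose, 4 had a mean under 20 counts in shCONTROL and passed the minimum through the other groups. Over all 16961 genes tested, 15.5% rose and 16.9% fell. Among genes with a mean of 20 to under 200 counts the shares were 7.73% and 7.92%, and of the 127 divergent transcripts in that range 10 (7.87%) rose and 4 (3.15%) fell. The share that rose lay near that of genes of like count. The median log2 fold change was 0.14 over the divergent transcripts and 0.017 over all genes, with values above 0 in 60.7% and 51.7%. CEP83-DT, EOLA2-DT, OSER1-DT and ZNRD2-DT had too few counts to be tested. Those that rose numbered 6 over transcripts above 0 in all 9 libraries, 19 with DESeq2, 21 with total-count scaling and 5 in 1 fit of all 9 libraries. Total-count scaling also moved the median of all genes to 0.067 and that of the divergent transcripts to 0.19. Those that fell numbered 7 without shCONTROL replicate 2, 8 without shCONTROL replicate 3 or shBCLAF1 replicate 2 or 3, and 5 in the fit of all 9. No shares of all genes were set beside these recomputed numbers.

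**Figure D1:**
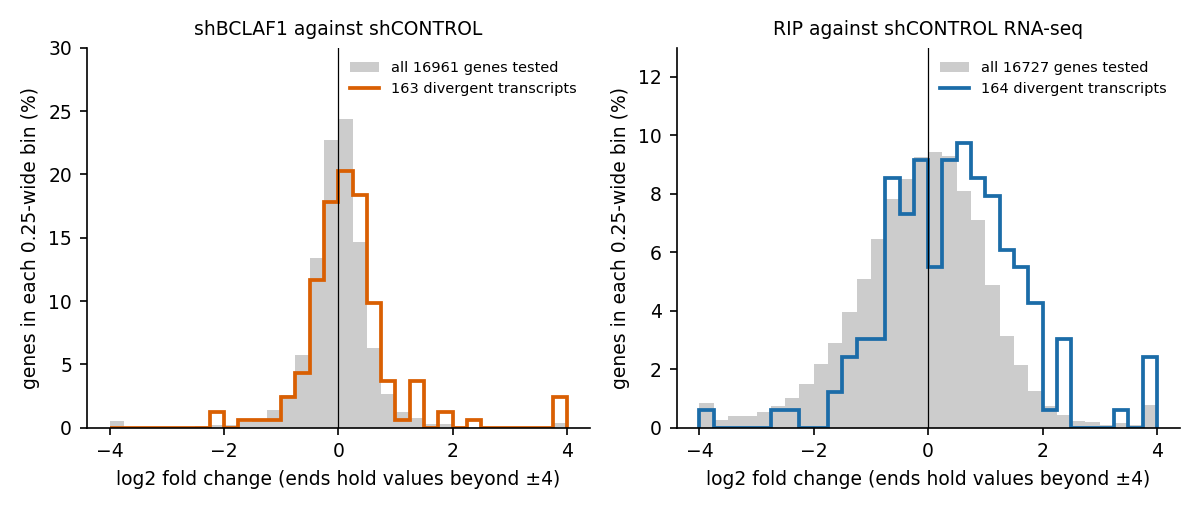
Distribution of log2 fold changes (x axis) as the percentage of genes in bins of 0.25 (y axis), for divergent transcripts (line) and all genes tested (grey), in the knock-down (left) and in the RIP against shCONTROL RNA-seq (right). The line lies close to the grey area on the left, with medians of 0.14 and 0.017, and to its right on the right, with medians of 0.42 and -0.05.

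SRP14-DT fell most of those called. It starts beside SRP14, which encodes a protein of the signal recognition particle. Its level was 3.74, 4.59 and 3.03 CPM in shCONTROL and 0.946, 0.476 and 1.12 CPM in shBCLAF1, so the groups lay far apart. The log2 fold change was -2.09 (SE 0.35, adjusted p = 0.00506, edgeR), while SRP14 itself did not pass the test (log2 fold change -0.06, adjusted p = 0.671). TMCC1-DT, beside the gene of an endoplasmic reticulum membrane protein, was among the 5 most abundant divergent transcripts in shCONTROL. Its level was 27.1, 28.1 and 25.4 CPM in shCONTROL and 12.1, 11.0 and 12.5 CPM in shBCLAF1, with little spread in either group. The log2 fold change was -1.17 (SE 0.078, adjusted p = 2.92e-04).

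FMNL1-DT, beside the gene of a leukocyte formin, fell from 9.23, 10.8 and 11.8 CPM to 4.68, 5.79 and 6.84 CPM (log2 fold change -0.87, adjusted p = 0.0109), and FMNL1 fell as well, by 0.27 on the log2 scale (adjusted p = 0.00853). CTBP1-DT, beside the gene of a transcriptional corepressor, fell from 11.2, 11.3 and 14.4 CPM to 7.12, 7.08 and 6.57 CPM (log2 fold change -0.82, adjusted p = 0.00421). Its annotated span overlaps CTBP1. TCF12-DT, beside the gene of a helix-loop-helix E protein and also overlapping its partner, fell from 13.8, 13.4 and 14.0 CPM to 10.0, 10.7 and 10.6 CPM (log2 fold change -0.40, adjusted p = 0.0077). The decreases of these transcripts were smaller than that of TMCC1-DT, and separate groups were a condition for naming each of them. TMEM161B-DT, the most abundant divergent transcript, fell from 96.1, 106 and 99.3 CPM to 74.4, 78.7 and 76.5 CPM (log2 fold change -0.39, adjusted p = 0.00245), while TMEM161B rose by 0.27 on the log2 scale (adjusted p = 0.0445). In 1 fit of all 9 libraries the adjusted p was 0.217 for CTBP1-DT and 0.0803 for TMEM161B-DT.

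Smaller or less stable decreases were called for TWF2-DT (log2 fold change -1.26), EPM2A-DT (-0.92), TARS1-DT (-0.59), COX10-DT (-0.55), LRRC8D-DT (-0.51) and NIPBL-DT (-0.22). The annotated span of EPM2A-DT overlaps EPM2A, FBXO30 and SHPRH. TWF2 encodes an actin-binding twinfilin, EPM2A the glycogen phosphatase laforin, TARS1 the threonyl-tRNA synthetase, COX10 an enzyme of haem A synthesis, LRRC8D a subunit of volume-regulated anion channels and NIPBL the cohesin loader. TARS1 and LRRC8D fell with their divergent transcripts, by 0.54 and 0.69 on the log2 scale (adjusted p = 3.94e-04 and 0.00117). The calls of all 6 were lost without shCONTROL replicate 2 (adjusted p 0.0553 to 0.131). Of the 6, 5 were lost without shCONTROL replicate 3 (0.0593 to 0.1235), 5 without shBCLAF1 replicate 2 (0.0584 to 0.137), 4 without shBCLAF1 replicate 3 (0.055 to 0.118), 3 without shBCLAF1 replicate 1 (0.0716 to 0.104) and 2 without shCONTROL replicate 1 (0.0575 and 0.0807). In 1 fit of all 9 libraries 5 of the 6 were lost, with adjusted p of 0.776 for EPM2A-DT, 0.292 for NIPBL-DT, 0.0783 for TARS1-DT, 0.0738 for COX10-DT and 0.0529 for LRRC8D-DT.

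Among the transcripts that rose, AFTPH-DT had the largest increase of those detected in every RNA-seq library. AFTPH encodes aftiphilin, a protein of clathrin-coated vesicles. AFTPH-DT was at 1.02, 1.24 and 0.945 CPM in shCONTROL and 2.89, 2.67 and 2.73 CPM in shBCLAF1. The log2 fold change was 1.33 (SE 0.16, adjusted p = 0.00173). AFTPH itself rose by 0.19 on the log2 scale (adjusted p = 0.018). ZNF236-DT, beside a zinc finger gene, rose from 1.70, 1.66 and 1.83 CPM to 3.55, 2.91 and 3.74 CPM (log2 fold change 0.95, adjusted p = 0.00419). BAIAP2-DT, beside the gene of an actin and membrane scaffold protein, rose from 10.4, 9.12 and 10.3 CPM to 16.4, 17.3 and 18.2 CPM (log2 fold change 0.80, adjusted p = 0.00127). RPS21-DT rose from 1.87, 1.57 and 1.83 CPM to 3.02, 2.88 and 3.24 CPM (log2 fold change 0.78, adjusted p = 0.00666). Its partner RPS21, a protein of the small ribosomal subunit, moved the other way and fell by 0.53 on the log2 scale (adjusted p = 0.00125). Separate groups were again a condition for naming these 4. In 1 fit of all 9 libraries the adjusted p was 0.454 for AFTPH-DT, 0.0522 for BAIAP2-DT and 0.0518 for RPS21-DT.

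Increases of 0.62 to 0.72 on the log2 scale were called for TMEM30A-DT, PDE7A-DT, GSK3B-DT and WASL-DT, whose partners encode a flippase subunit, a cyclic AMP phosphodiesterase, a serine/threonine kinase and the actin regulator N-WASP. Without shBCLAF1 replicate 2 none of these 4 passed (adjusted p 0.0522 to 0.113). Of the 4, 3 were lost without shCONTROL replicate 1 (0.067 to 0.121), 3 without shCONTROL replicate 2 (0.0503 to 0.092), 3 without shCONTROL replicate 3 (0.055 to 0.1225), 2 without shBCLAF1 replicate 3 (0.0628 and 0.106) and 1 without shBCLAF1 replicate 1 (0.0574). In the fit of all 9 libraries 3 were lost, with adjusted p of 0.789 for TMEM30A-DT, 0.189 for WASL-DT and 0.1395 for GSK3B-DT.

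The other 4 transcripts called higher were listed at 0 in all 3 shCONTROL libraries. MAGOH-DT, beside the gene of an exon junction complex protein, had 121, 27 and 19 counts in shBCLAF1, POLG-DT, beside that of the mitochondrial DNA polymerase, had 40, 33 and 29, MIOS-DT, beside that of a GATOR2 subunit, had 28, 24 and 26 and ODC1-DT, beside that of an enzyme of polyamine synthesis, had 48, 20 and 21. Against a floor of 3 counts per library these are at least 17.2-fold, 10.6-fold, 8.09-fold and 9.19-fold higher. For MAGOH-DT the bound was 7.18-fold without shBCLAF1 replicate 1. The RIP libraries, made from the same shCONTROL cells, listed 36, 27 and 29 counts of MAGOH-DT and 62, 43 and 80 of POLG-DT. The 0 in shCONTROL can be a failed estimate, as described above, and the annotated span of POLG-DT overlaps POLG, which rose by 0.42 on the log2 scale (adjusted p = 9.56e-04).

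**Figure D2:**
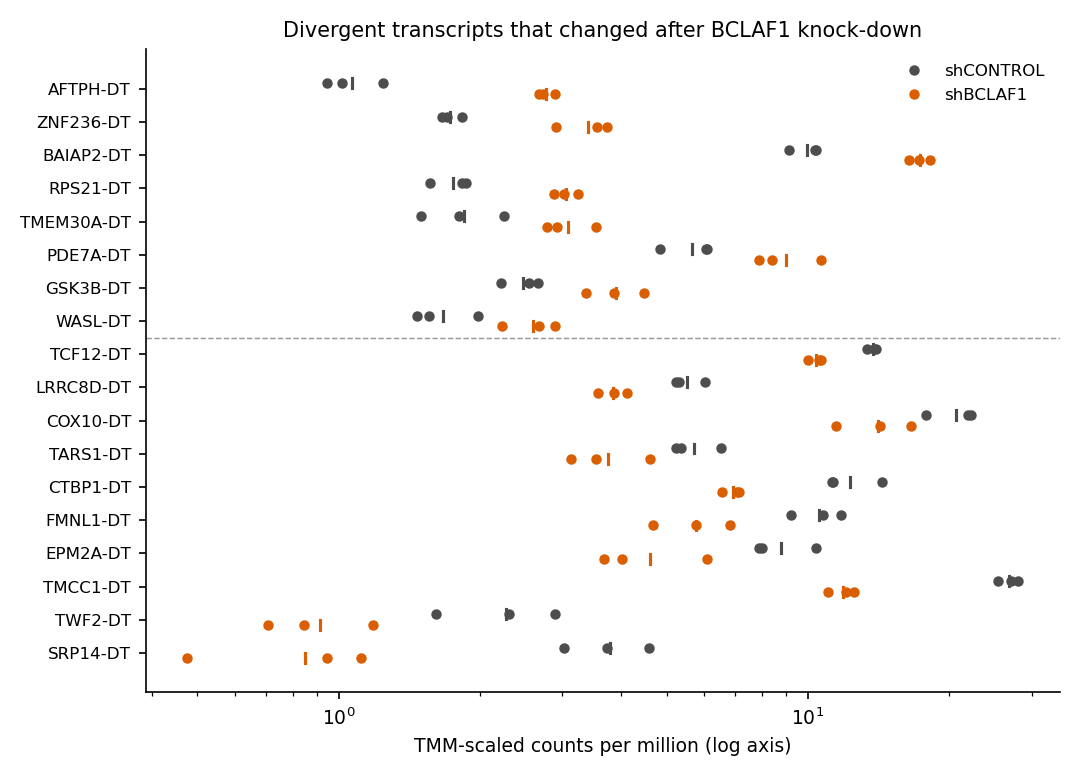
Level in CPM (log x axis) of the divergent transcripts named among those that changed after knock-down, 1 point per library and a bar at the mean of the 3 libraries of a group; transcripts above the dashed line rose, those below fell. Separate groups were a condition for being drawn, and the log2 fold changes run from -2.09 for SRP14-DT at the bottom to 1.33 for AFTPH-DT at the top.

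Partner genes were tested beside their divergent transcripts. Of 165 partners tested, 35 (21.2%) rose and 28 (17%) fell after knock-down, beside 15.5% and 16.9% of all genes. The share called was lower among genes with few counts, at 7.73% and 7.92% for a mean of 20 to under 200. The partners' median was 1947 counts, and no share of genes of like count was set beside theirs. Of the 25 divergent transcripts called, 8 had a partner called in the same direction, 3 in the opposite direction (RPS21-DT, ODC1-DT and TMEM161B-DT) and 14 had a partner that did not pass the test. Across 161 pairs the log2 fold changes of transcript and partner had the same sign in 95 (59%), with a Spearman correlation of 0.19. The correlation was 0.39 over 183 other head-to-head pairs of a noncoding and a coding gene and 0.15 over 701 pairs of coding genes. These correlations run across gene pairs of the same 6 libraries and are descriptions. Over the 127 pairs with a divergent transcript above 0 in all 9 libraries the correlation was 0.27. The part that noise at low counts has in these values was not tested.

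The log2 ratio of transcript to partner in each library was tested with limma over all 1023 head-to-head pairs with starts within 1000 bases and a mean of at least 20 counts in both genes, 119 of them with a divergent transcript. After knock-down 7 of the 119 ratios rose and 7 fell. Together they made 11.8%, against 24.7% of all head-to-head pairs; of 185 other pairs of a noncoding and a coding gene 7.57% rose and 4.86% fell. The number that rose was 4 without shBCLAF1 replicate 2, and the number that fell was 2 without shCONTROL replicate 2, 3 without shCONTROL replicate 3 or shBCLAF1 replicate 2, and 4 without shBCLAF1 replicate 1. No share of all pairs was set beside these recomputed numbers.

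TMCC1-DT showed the change of ratio best. For every 100 counts of TMCC1 there were 246, 305 and 236 counts of TMCC1-DT in shCONTROL and 90.7, 90.9 and 108 in shBCLAF1, without length correction. The ratio changed by -1.43 on the log2 scale (SE 0.14, adjusted p = 0.0018, limma). For TMEM161B the divergent transcript gave 229, 237 and 241 counts per 100 in shCONTROL and 141, 144 and 166 in shBCLAF1 (change of -0.65, adjusted p = 0.00365). SRP14-DT gave 3.68, 5.02 and 3.51 counts per 100 of SRP14 in shCONTROL and 1.00, 0.507 and 1.42 in shBCLAF1 (change of -2.08, adjusted p = 0.014). In these 3 pairs every shBCLAF1 library lay below every shCONTROL library. RPS21-DT gave 0.477, 0.402 and 0.501 counts per 100 of RPS21 in shCONTROL and 1.08, 1.08 and 1.31 in shBCLAF1, a rise of 1.31 (adjusted p = 0.00573) to which both genes contributed. AFTPH-DT rose against AFTPH by 1.15 (adjusted p = 0.00987). Ratios of CTBP1-DT (-0.97), COX10-DT (-0.49) and ZNF236-DT (0.83) were called, with adjusted p of 0.0282, 0.0405 and 0.0312. Without shCONTROL replicate 2 these rose to 0.0642, 0.106 and 0.085 and that of SRP14-DT to 0.0546. The calls of CTBP1-DT and COX10-DT were also lost without shCONTROL replicate 3 (0.0854 and 0.111) or any 1 shBCLAF1 replicate (0.0552 to 0.0825), and that of ZNF236-DT without shCONTROL replicate 1 (0.0843) or any 1 shBCLAF1 replicate (0.0546 to 0.0739).

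**Figure D3:**
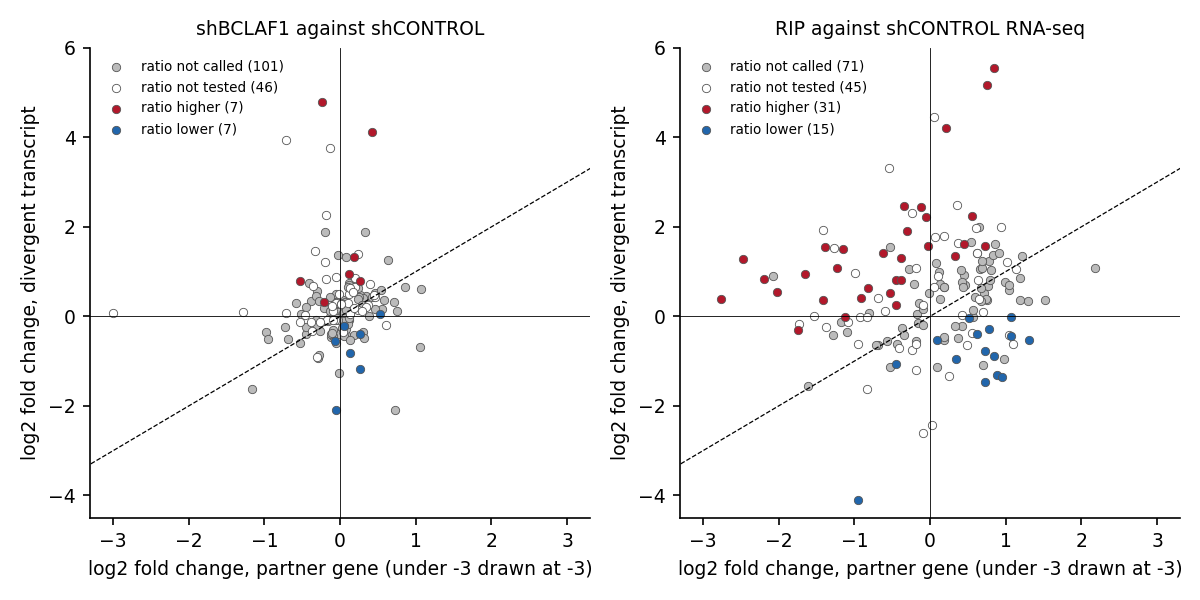
Log2 fold change of each divergent transcript (y axis) against that of its partner gene (x axis), 1 point per pair, for the knock-down (left) and the RIP (right); the dashed line marks equal change, and colours mark the result of the limma test of the ratio. Pairs with a called ratio number 14 on the left and 46 on the right, where red points lie mostly left of the vertical line, at partners with lower levels in the RIP.

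In the RIP, divergent transcripts were more often higher than lower relative to shCONTROL RNA-seq. Of 164 tested, 34 (20.7%) were enriched and 7 (4.27%) depleted, at an adjusted p under 0.05 and an absolute log2 fold change of 1 or more. Over all 16727 genes tested, 11.0% were enriched and 13.5% depleted. Among genes with a mean of 20 to under 200 counts the shares were 10.4% and 11.1%, where 26 of 128 divergent transcripts (20.3%) were enriched and 7 (5.47%) depleted. The median log2 fold change was 0.42 over the divergent transcripts and -0.05 over all genes, with values above 0 in 63.4% and 48.1%. Scaling by total counts moved the median of all genes to -0.17 and that of the divergent transcripts to 0.30. Of their partners 14 of 165 (8.48%) were enriched and 21 (12.7%) depleted, with a median of 0.13. The mean that chose the transcripts includes the RIP libraries, and 8 of the 34 enriched had a mean under 20 counts in shCONTROL. Of the 113 with a mean of at least 50 counts over the 9 libraries, which also include the RIP, 21 were enriched. The number depleted was 14 without RIP replicate 1. No share of all genes was set beside either number. GALNT7-DT, ODC1-DT and ZNF230-DT were not tested. With no mock precipitation, recovery with BCLAF1 and carry-over in the RIP cannot be told apart.

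TCF12-DT was enriched with little spread in either group. It was at 13.8, 13.4 and 14.0 CPM in shCONTROL and 39.9, 39.0 and 44.1 CPM in the RIP (log2 fold change 1.56, SE 0.092, adjusted p = 2.24e-04, edgeR). TCF12 was also higher, by 0.72 on the log2 scale, and the ratio of the pair rose by 0.84 (adjusted p = 0.00126, limma). C2orf49-DT, beside the gene of a tRNA ligase complex protein, was at 6.11, 5.83 and 5.81 CPM in shCONTROL and 28.0, 16.8 and 25.9 CPM in the RIP (log2 fold change 1.97, adjusted p = 7.8e-04). CDK13-DT, beside the gene of a kinase of RNA polymerase II, was at 1.39, 1.18 and 1.33 CPM in shCONTROL and 5.82, 4.74 and 8.88 CPM in the RIP (log2 fold change 2.25, adjusted p = 0.00136). For all 3 the lowest RIP library lay above the highest shCONTROL library, which the choice of named transcripts required.

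ZNF747-DT, beside a zinc finger gene, rose from 1.84, 1.27 and 2.45 CPM in shCONTROL to 7.12, 5.69 and 8.81 CPM in the RIP (log2 fold change 1.91, adjusted p = 0.00325). DNAJC3-DT, beside the gene of a co-chaperone of the endoplasmic reticulum, rose from 3.85, 6.90 and 7.26 CPM to 17.5, 19.3 and 19.0 CPM (log2 fold change 1.62, adjusted p = 0.00305). IRF2-DT, beside the gene of an interferon regulatory factor, rose from 3.91, 3.20 and 3.64 CPM to 9.01, 11.0 and 14.2 CPM (log2 fold change 1.64, adjusted p = 0.00149). The groups were separate in each. Relative to the mean, the RIP libraries of ZNF747-DT and IRF2-DT spread more than those of TCF12-DT, and those of DNAJC3-DT did not. TBC1D22A-DT had the highest log2 fold change of those with a mean of at least 50 counts and no group at 0, 2.31 (adjusted p = 0.00257), with its annotated start 1214 bases from that of its partner. TMEM167B-DT (1.92), SLC20A1-DT (1.77) and RNF139-DT (1.42) were enriched as well. The calls of these 10 held without any 1 library, at adjusted p up to 0.0189.

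Of the 34 enriched transcripts 4 were listed at 0 in all shCONTROL libraries. CEP83-DT, beside the gene of a centriole protein, had 79, 71 and 93 counts in the RIP, POLG-DT had 62, 43 and 80, MIOS-DT had 45, 36 and 28 and MAGOH-DT had 36, 27 and 29. Against a floor of 3 counts per library these are at least 34.4-fold, 26.2-fold, 15.6-fold and 13.1-fold higher. The bounds hold only where the 0 in shCONTROL is not a failed estimate. CEP83-DT was listed at 0, 39 and 0 counts in shBCLAF1. Its annotated span overlaps CEP83, which was higher in the RIP (log2 fold change 0.84, adjusted p = 0.00369, edgeR). POLG-DT, MIOS-DT and MAGOH-DT were called higher after knock-down against the same 0 values.

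The depleted transcripts were DPP3-DT, TMEM11-DT, MAP4K3-DT, SRP14-DT, PPP1R3B-DT, RNASEH1-DT and LRRC8D-DT. DPP3-DT had 42, 33 and 34 counts in shCONTROL and was listed at 0 in the 3 RIP libraries, at least 9.48-fold lower against the same floor. This bound holds only where the 0 in the RIP is not a failed estimate. DPP3-DT was also listed at 47, 39 and 0 counts in shBCLAF1, and its annotated span overlaps PELI3. TMEM11-DT, beside the gene of a mitochondrial inner membrane protein, was at 4.13, 4.38 and 5.39 CPM in shCONTROL and 1.46, 1.87 and 1.04 CPM in the RIP (log2 fold change -1.63, adjusted p = 0.00429). MAP4K3-DT, beside a kinase gene, was at 2.63, 3.11 and 2.81 CPM in shCONTROL and 1.22, 1.06 and 0.729 CPM in the RIP (log2 fold change -1.46, adjusted p = 0.00582). SRP14-DT was low in the RIP, at 1.61, 1.38 and 1.35 CPM, as it was after knock-down (log2 fold change -1.35, adjusted p = 0.00435). The knock-down and RIP comparisons share the shCONTROL libraries, and with the average of shCONTROL and shBCLAF1 as reference SRP14-DT had a log2 fold change of -0.31 (adjusted p = 0.387). RNASEH1-DT (-1.09) and LRRC8D-DT (-1.07) lay just past the minimum, and RNASEH1-DT was at -0.99 without shCONTROL replicate 1 and at -0.97 without shCONTROL replicate 3. Over 14 alternative settings RNASEH1-DT ran from -1.28 to -0.83 and LRRC8D-DT from -1.19 to -0.81, so both also fell short of the minimum. LRRC8D-DT had also fallen after knock-down, against the same shCONTROL libraries. The call of PPP1R3B-DT (-1.19) was lost without shCONTROL replicate 1 (0.0895) or 3 (0.11) or RIP replicate 1 (0.0538) or 2 (0.0544). RAB30-DT fell by less than the minimum, from 13.9, 16.6 and 16.4 CPM to 10.7, 9.05 and 9.13 CPM (log2 fold change -0.70, adjusted p = 0.00576), and its partner RAB30 was listed at 0 in all 9 libraries. USP46-DT (-0.89), ZNF236-DT (-0.78) and MCPH1-DT (-0.63) were also lower by less than the minimum, with adjusted p of 0.0479, 0.0424 and 0.0417. Without shCONTROL replicate 1 these were 0.167, 0.117 and 0.122; each was also above 0.05 without shCONTROL replicate 2, at up to 0.141. Without shCONTROL replicate 3, RIP replicate 1, 2 or 3 the adjusted p of at least 1 of the 3 was above 0.05, at up to 0.142.

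**Figure D4:**
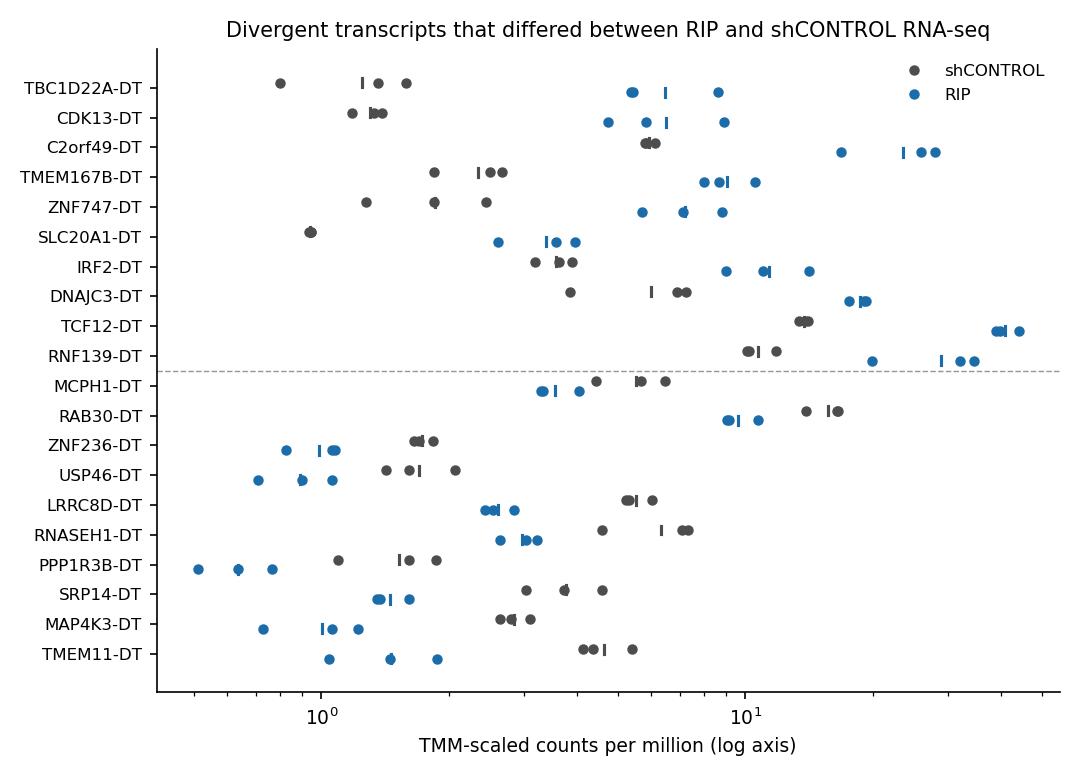
Level in CPM (log x axis) of the divergent transcripts named among those that differed between the RIP and shCONTROL RNA-seq, 1 point per library and a bar at the mean of each group; those above the dashed line were higher in the RIP, those below lower. Separate groups were a condition for being drawn, and the log2 fold changes run from 2.31 for TBC1D22A-DT to -1.63 for TMEM11-DT.

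Of the 34 enriched transcripts 3 had an enriched partner (THOC1-DT and EIF3J-DT among them), 5 had a depleted one (IL10RB-DT, MAD2L1-DT, APPBP2-DT, SLC30A6-DT and TMEM167B-DT) and 26 had a partner that was not called, where 8.48% of all partners were enriched and 12.7% depleted. EIF3J-DT, beside the gene of a translation initiation factor subunit, was at 3.74, 4.41 and 4.89 CPM in shCONTROL and 11.5, 10.8 and 11.2 CPM in the RIP, with log2 fold changes of 1.34 for the transcript (adjusted p = 9.16e-04) and 1.22 for EIF3J (adjusted p = 2.75e-04). In TMEM167B-DT the 2 genes parted: the transcript was at 1.84, 2.66 and 2.50 CPM in shCONTROL and 8.65, 7.99 and 10.5 CPM in the RIP, while TMEM167B was depleted (log2 fold change -1.42, adjusted p = 2.34e-04). Across 162 pairs the Spearman correlation of the log2 fold changes was 0.09, with the same sign in 93 (57.4%), and it was 0.25 over 184 other pairs of a noncoding and a coding gene. Over the 127 pairs with a divergent transcript above 0 in all 9 libraries the correlation was 0.065.

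The ratio of transcript to partner was higher in the RIP for 31 (26.1%) of the 119 pairs and lower for 15 (12.6%). Called ratios made 38.7% of these pairs and 50.4% of all head-to-head pairs, and of the other pairs of a noncoding and a coding gene 21.1% were higher and 16.2% lower. Of the 31 higher ratios 14 had an enriched transcript, 11 a depleted partner and 3 both. Without shCONTROL replicate 3 the number of lower ratios was 6. With at least 50 counts in both genes, which leaves fewer pairs, the number of higher ratios was 18. No share of all pairs was set beside either number. MAD2L1, which encodes a spindle checkpoint protein, was the pair with the largest rise among those above 0 in every library. MAD2L1-DT gave 0.467, 0.488 and 0.526 counts per 100 of MAD2L1 in shCONTROL and 9.21, 7.07 and 5.25 in the RIP (change of 3.71, adjusted p = 6.69e-04, limma). MAD2L1 was depleted (log2 fold change -2.47) and MAD2L1-DT enriched (1.27). MAD2L1-DT had 15, 15 and 17 counts in shCONTROL, under the minimum of 20 that it reached with its 41, 29 and 26 counts in the RIP and its 18, 34 and 13 in shBCLAF1. RPS21-DT rose against RPS21 by 3.16 (adjusted p = 4.91e-04); RPS21 was depleted (-2.76), and RPS21-DT was not called (0.39). COX10-DT gave 79.9, 91.7 and 99.6 counts per 100 of COX10 in shCONTROL and 252, 211 and 195 in the RIP (change of 1.27, adjusted p = 0.001). In these pairs no RIP library reached down to a shCONTROL library.

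Of the 15 lower ratios 11 had a partner higher in the RIP at an adjusted p under 0.05. MAP4K3-DT gave 15.5, 27.9 and 22.9 counts per 100 of MAP4K3 in shCONTROL and 4.49, 5.66 and 3.35 in the RIP (change of -2.22, adjusted p = 0.00294). SRP14-DT fell against SRP14 by 2.25 on the log2 scale (adjusted p = 0.00233), and TMCC1-DT gave 83.5, 103 and 87.9 counts per 100 of TMCC1 in the RIP (change of -1.51, adjusted p = 5.99e-04). The knock-down and RIP ratios share the shCONTROL libraries. In shBCLAF1 TMCC1-DT gave 90.7, 90.9 and 108 counts per 100, near its RIP values. SRP14-DT gave 1.01, 1.00 and 0.547 in the RIP and 1.00, 0.507 and 1.42 in shBCLAF1. TMCC1 was enriched (log2 fold change 1.07, adjusted p = 0.00102), while TMCC1-DT, at a log2 fold change of -0.44, missed the minimum. With the average of shCONTROL and shBCLAF1 as reference TMCC1-DT was at 0.15. DPP3-DT had a change of -3.14 (adjusted p = 0.00916) with the transcript listed at 0 in the RIP, which can be a failed estimate. Ratios of DPY19L3-DT (-2.85) and CAMSAP1-DT (-1.76) were also called, with adjusted p of 0.0468 and 0.0188. Without shCONTROL replicate 3 these were 0.115 and 0.066, and DPY19L3-DT was also lost without shCONTROL replicate 1 (0.0896) or 2 (0.11). The rise of OSER1-DT against OSER1 (3.68, adjusted p = 0.0306) was lost without 5 of the 6 libraries in turn, all but shCONTROL replicate 1 (0.0656 to 0.0861).

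**Figure D5:**
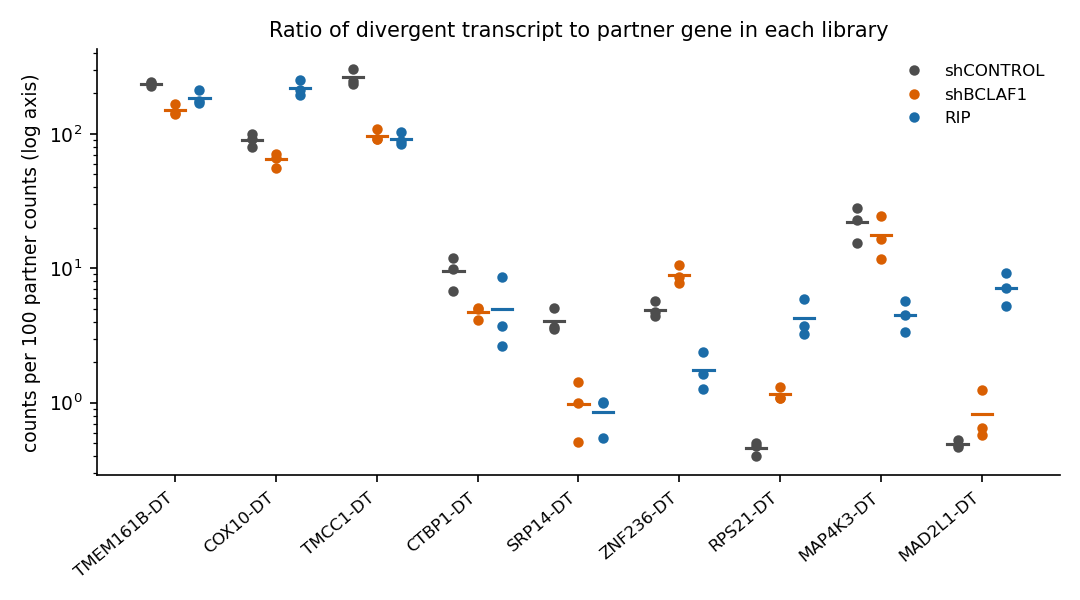
Counts of the divergent transcript per 100 counts of its partner gene (log y axis, no length correction) in each library of the 3 groups, for 9 named pairs above 0 in every library; bars mark group means. TMCC1-DT lies at 236 to 305 for shCONTROL and at 90.7 to 108 for shBCLAF1, and MAD2L1-DT at 0.467 to 0.526 for shCONTROL and at 5.25 to 9.21 for the RIP.

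The 5 most abundant divergent transcripts in shCONTROL were TMEM161B-DT at 100 ± 5.0 CPM (SD, n = 3), GARS1-DT at 71.7 ± 8.6, NIPBL-DT at 62.3 ± 4.9, MVP-DT at 52.7 ± 36.3 and TMCC1-DT at 26.9 ± 1.4. GARS1-DT, beside the gene of the glycyl-tRNA synthetase, did not pass the test after knock-down (log2 fold change 0.09, adjusted p = 0.519), although GARS1 fell by 1.28 on the log2 scale (adjusted p = 2.06e-04). Their annotated starts lie 16956 bases apart. GARS1-DT was at 77.0, 69.5 and 69.0 CPM in the RIP against 66.2, 81.6 and 67.2 in shCONTROL, with overlapping groups. MVP-DT, beside the gene of the major vault protein, varied within groups: it was at 92.4, 21.1 and 44.7 CPM (shCONTROL), 36.5, 44.2 and 17.3 CPM (shBCLAF1) and 26.3, 83.0 and 59.4 CPM (RIP). Neither comparison passed the test, and MVP rose after knock-down by 1.06 on the log2 scale (adjusted p = 6.24e-04). The annotated span of MVP-DT overlaps MAZ and PAGR1. TMEM161B-DT was lower in the RIP (log2 fold change -0.54, adjusted p = 0.0226), which missed the minimum; without shCONTROL replicate 1, 2 or 3 or RIP replicate 2 the adjusted p was 0.0598, 0.0774, 0.068 and 0.0599.

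CEBPA-DT, beside the gene of a transcription factor of myeloid differentiation, is the one transcript whose partner was among the listed leukemia and haematopoietic factors. It was at 4.81, 6.19 and 5.73 CPM (shCONTROL), 3.86, 4.20 and 5.92 CPM (shBCLAF1) and 4.25, 5.94 and 4.27 CPM (RIP), and the groups overlapped. Neither the knock-down (log2 fold change -0.25, SE 0.20, adjusted p = 0.387) nor the RIP (-0.21, SE 0.21, adjusted p = 0.43) passed the test. CEBPA was at a log2 fold change of 0.03 after knock-down (adjusted p = 0.777).

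Genes of the machinery that ends or degrades divergent transcripts, and protein genes of U1 snRNP, were tested in the same fits. Of 10 NEXT, PAXT and cap-bound adaptor genes 2 rose and 4 fell after knock-down, where 15.5% of all genes rose and 16.9% fell. The helicase MTREX fell by 0.36 on the log2 scale (adjusted p = 6.45e-04) and the cap-binding genes NCBP1 and NCBP2 by 0.30 and 0.29. None of 13 nuclear exosome genes rose and 4 fell, led by EXOSC1 (log2 fold change -0.60) and EXOSC8 (-0.48). Of 17 Integrator and Restrictor genes 2 rose and 3 fell, with INTS13 at a log2 fold change of -0.45. Among 17 cleavage and polyadenylation genes 7 fell and 0 rose. CSTF3 fell by 0.80 on the log2 scale (adjusted p = 3.27e-04) and NUDT21 by 0.38. Of 10 protein genes of U1 snRNP 6 fell and 0 rose, with SNRPE at a log2 fold change of -0.80. The median log2 fold changes of the 5 lists were -0.10, -0.02, -0.03, -0.10 and -0.32 in this order, beside 0.02 for all genes. In the RIP 5 of these 67 genes were enriched and 11 depleted, where 11.0% of all genes were enriched and 13.5% depleted. Among them were EXOSC10 (log2 fold change 1.60) and CPSF6 (1.26) enriched and NUDT21 (-1.87), SNRPF (-1.87) and EXOSC4 (-1.72) depleted.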

How the data were processed

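All libraries carry 1 batch label. Total RNA was depleted of ribosomal RNA and sequenced from stranded libraries in paired ends, per the labels' protocols. The submitters' processing notes name STAR 2.7.11b, StringTie 2.2.3 and hg38. The deposited gene table holds the authors' estimated counts, whole numbers with no normalization; 1 entry naming no gene (2.18% to 3.75% of counts in 8 libraries) was left out. The divergent transcripts and all gene lists were chosen with earlier results of these data known.

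Each contrast was fitted over its 6 libraries with edgeR 4.0.16 (R 4.3.3): filterByExpr, TMM, quasi-likelihood F-test, Benjamini-Hochberg over all genes tested. Pair ratios, log2 with a prior count of 2, were tested with limma 3.58.1. Both were tested on simulated data. Named were up to 10 highest and 10 lowest called per contrast with a mean of at least 50 counts and separate groups, the 5 most abundant, 5 highest and 5 lowest ratios, those beside the count minimum, those of leukemia factor genes, and up to 3 genes per list of other genes by adjusted p. Counting error and estimation from coverage limit low counts. Promoter windows came from RefSeq (GRCh38.p14). Alternatives covered scaling, filters, DESeq2 1.42.0, a replicate block, prior counts, thresholds, start distance and left-out libraries.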

Additional observations from a re-analysis of the deposited data

How the results depend on the processing

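Of 8 counts of called transcripts and ratios, 93 of 118 recomputed values stayed within 1.5 times. After knock-down the 12 that rose were 21 with total counts, 5 in 1 fit of all 9 libraries, 19 with DESeq2, 6 over transcripts above 0 in all 9 libraries (chosen after seeing the data) and 5 with an absolute log2 fold change of 1 or more. The 13 that fell were 5 in the fit of all 9 and 3 with that minimum. Leaving out 1 library gave 8 to 16 and 7 to 11. The 7 ratios that rose were 4 over pairs above 0 in all 9 libraries (chosen after seeing the data), and leaving out 1 library gave 4 to 9 and, for the 7 that fell, 2 to 7. In the RIP the 34 enriched were 21 with a mean of at least 50 counts and 30 to 39 without 1 library; the 7 depleted were 15 with no minimum fold change and 5 to 14 without 1 library. The 31 higher ratios were 18 with at least 50 counts in both genes and 25 to 29 without 1 library; the 15 lower ratios were 6 to 16. No shares of all genes stand beside these recomputed counts, and the causes were not tested. Replicate numbers did not pair the libraries: deviations of same-numbered libraries correlated at -0.02 to 0.06. With a replicate block 7 transcripts fell, 4 ratios rose and 4 fell after knock-down. Calls lost with it were those of TWF2-DT, EPM2A-DT, TARS1-DT, COX10-DT, LRRC8D-DT and NIPBL-DT (adjusted p 0.0528 to 0.0858) and of TMEM30A-DT, GSK3B-DT and WASL-DT (0.0571 to 0.0698).

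Signs reversed only where no call was made or against another reference. Without 1 library, MVP-DT ran from -1.06 to 0.0019 after knock-down (above 0 without shCONTROL replicate 1) and from -0.32 to 0.77 in the RIP (below 0 without shCONTROL replicate 2 or 3 or RIP replicate 2), where total counts gave -0.051. In the RIP, GARS1-DT ran from -0.054 to 0.092 (above 0 without shCONTROL replicate 2 or RIP replicate 2 or 3) and was at 0.0041 with RLE factors, 0.0023 with no filter, 0.0012 with the replicate block, 0.0035 in the fit of all 9 and 0.0060 with DESeq2. NIPBL-DT ran from -0.15 to 0.095 (above 0 without shCONTROL replicate 2 or RIP replicate 3). With the average of shCONTROL and shBCLAF1 as reference, NIPBL-DT was at 0.083 and TMCC1-DT at 0.15. Low counts limit the rest: 54 of the 167 transcripts had a mean under 50 counts.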
